A study of Homo sapiens with 14 samples.

Results

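Broad H3K9me3 domains of TC-32 cells are described here. A domain is a stretch of at least 6 kb that the H3K9me3 peak list of set B replicate 1 gives as 1 row, on chromosomes 1 to 22 and X, and that overlaps a row of replicate 2. The rule gave 1150 domains among the 36687 H3K9me3 rows of replicate 1, or 3.135% of the rows. They covered 12.83 Mb, which was 21.49% of the bases in those rows and 0.4407% of the genome. TC-32 is an established Ewing sarcoma cell line that carries the EWSR1::FLI1 fusion, and the cells are labelled WT with no treatment. CUT&RUN is a method that cuts and recovers chromatin bound by an antibody, and the series set binding of the fusion beside marks of active and repressed chromatin. The lists used were FLI1 in set A and set B, H3K27ac in set A, and H3K9me3 and H3K27me3 in set B, each with replicates 1 and 2, while 4 IgG libraries served as controls. The labels do not say what the letters A and B mean or whether replicates are separate cultures, so every spread and p-value refers to these libraries only, which may be technical repeats. An FLI1 antibody reads the fusion and any FLI1 without the fusion alike.

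H3K9me3 is the histone mark of constitutive heterochromatin. Its writers include SUV39H1, SUV39H2 and SETDB1, and proteins of the HP1 family bind it. It is known at centromeric satellites, at transposons and, in many human cell types, over the clusters of KRAB zinc-finger genes, whose proteins bind DNA through a row of repeated C2H2 fingers and recruit TRIM28 and SETDB1 to their targets. EWSR1::FLI1 joins a transactivating domain to the ETS domain of FLI1, which binds sites with a GGAA core and, in the fusion, runs of GGAA repeats.

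Sequences from hg38 show the kinds of DNA that the domains held. The first is a coding stretch of ZNF678 inside a domain, on chr1:227654876-227655127, + strand, read 5′ to 3′. Its capitals mark ACNGGNGAGAAACC, the most frequent 14-base word in the coding exons of zinc-finger genes, with N where a base varied. These letters code for the conserved linker between neighbouring fingers.
ZNF678 zinc fingers: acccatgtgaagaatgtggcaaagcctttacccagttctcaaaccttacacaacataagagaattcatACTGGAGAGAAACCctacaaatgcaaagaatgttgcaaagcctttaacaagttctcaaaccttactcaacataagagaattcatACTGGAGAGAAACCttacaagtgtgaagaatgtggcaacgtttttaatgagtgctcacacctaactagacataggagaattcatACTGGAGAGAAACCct
The linker letters occur 3 times in these 252 bases, at a spacing of 84 bases, the length that codes for 1 finger and its linker. Searched on both strands, the linker was found in 0.0149% of all 252-base tiles of the genome, and 0.000744% of tiles held it at least 3 times on 1 strand. Next are 2 stretches from the middle of domains without an annotated gene, chosen as the widest domains that repeat at a multiple of 5 bases outside chromosomes 8 and 18. They lie on chr21:7948877-7948996, - strand, and chr17:26858960-26859079, + strand. Capitals mark GGAAT, the unit of a human satellite family.
chromosome 21 satellite: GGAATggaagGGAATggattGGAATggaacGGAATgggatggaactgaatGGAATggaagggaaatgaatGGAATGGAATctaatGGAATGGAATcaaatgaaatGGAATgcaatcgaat
chromosome 17 satellite: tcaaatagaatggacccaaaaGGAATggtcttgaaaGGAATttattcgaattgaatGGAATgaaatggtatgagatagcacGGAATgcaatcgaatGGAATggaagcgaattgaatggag
The unit occurs 10 times in the chromosome 21 stretch and 5 times in the chromosome 17 stretch. On 1 strand, at least 10 units stood in 0.0167% and at least 5 in 0.0633% of all 120-base tiles. The last set shows 150 bases at the summits of FLI1 regions that lay in a domain in all 4 FLI1 libraries, + strand, with GGAA and its reverse complement TTCC in capitals. Of the 9 such regions, the 4 shown are those whose window touches no annotated UTR and holds the summits of at least 3 libraries. They lie on chr6:168169119-168169268, chr5:150905021-150905170, chr19:9407149-9407298 and chr19:36838421-36838570.
chromosome 6 intergenic: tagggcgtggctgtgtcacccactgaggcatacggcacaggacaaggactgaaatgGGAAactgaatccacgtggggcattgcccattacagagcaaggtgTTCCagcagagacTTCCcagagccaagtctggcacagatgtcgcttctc
upstream of ZNF300: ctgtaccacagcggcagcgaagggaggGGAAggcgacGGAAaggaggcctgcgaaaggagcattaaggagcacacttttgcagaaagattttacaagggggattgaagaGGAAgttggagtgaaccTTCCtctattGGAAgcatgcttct
chromosome 19 intergenic: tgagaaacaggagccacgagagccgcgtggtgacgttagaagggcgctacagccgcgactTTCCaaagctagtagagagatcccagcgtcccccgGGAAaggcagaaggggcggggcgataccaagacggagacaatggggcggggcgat
ZNF790 intron: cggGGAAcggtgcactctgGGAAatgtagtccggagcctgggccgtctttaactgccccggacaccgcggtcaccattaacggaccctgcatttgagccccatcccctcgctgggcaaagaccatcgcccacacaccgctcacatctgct
Each window is centred on the median of the 4 libraries' summits. The core occurs 3, 5, 2 and 2 times in these windows. Of all 150-base tiles, 44.5% held at least 2 cores, 20.9% at least 3 and 2.6% at least 5, counted on both strands. None of the 9 FLI1 regions found in a domain in all 4 libraries held a run of 4 or more GGAA units.

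The domains were 6.002 to 69.97 kb wide, with a median of 8.493 kb, and 111 exceeded 20 kb. Width in replicate 1 and overlap with replicate 2 chose them, so these values are a description. All 1150 rows of 6 kb or more in replicate 1 overlapped replicate 2, whereas 17791 of the 35537 rows under 6 kb did (50.06%). The latter are called narrower rows below. Replicate 2 rows held a median of 83.32% of a domain, from 3.606% to 100%, and 706 domains (61.39%) met a replicate 2 row that was itself at least 6 kb wide. The authors' deposited fold over control had a median of 5.784 in replicate 1 and 5.952 in replicate 2, against 4.927 for the narrower rows in replicate 1. The rows just inside the limit were 6002, 6002 and 6004 bp wide, with folds of 5.2, 7.37 and 7.31. The rows just outside it were 5997, 5996 and 5995 bp wide, with folds of 8.2, 5.32 and 5.19. The domains were therefore set off from their nearest neighbours by width alone.

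Genes named as C2H2 zinc-finger genes (ZNF, ZFP, ZSCAN, ZKSCAN and a few single names, called ZNF genes below) were the main gene family in the domains. A domain overlapped the body of 270 of 572 ZNF genes (47.2%), against 709 of all 19970 protein-coding genes (3.55%) and 439 of 19398 protein-coding genes that were not ZNF genes (2.26%). The ZNF genes overlapped lay on 18 chromosomes. Narrower rows, which cover more sequence, overlapped 266 of the 572, so overlap with this family was not particular to the domains. The share of all protein-coding genes that narrower rows overlapped is not given here. The share of ZNF genes overlapped by a domain was 63.26% on chromosome 19, and elsewhere it was 103 of 308 genes (33.44%). In broad H3K27me3 regions chosen by the same rule from the H3K27me3 lists, 4 of 572 ZNF genes were overlapped (0.699%), against 828 of all protein-coding genes (4.15%). Thus the 2 repressive marks, drawn by 1 rule, covered like shares of all genes and unlike shares of this family.

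Of the 1150 domains, 332 (28.9%) overlapped a ZNF gene, 428 another protein-coding gene only, 177 a non-coding gene or pseudogene only, and 213 no annotated gene. The domains with a ZNF gene were wider, with a median of 12.1 kb against 7.7, 8.39 and 7.33 kb in the other classes. They held 41.4% of all domain bases and 80 of the 111 domains over 20 kb. Of the narrower rows, 3.26% overlapped a ZNF gene. The 4 classes had similar fold, with medians from 5.52 to 5.91 in replicate 1 and from 5.82 to 6.07 in replicate 2, so the ZNF domains stood apart in width and not in the height that the authors' caller gave.

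**Figure D1:**
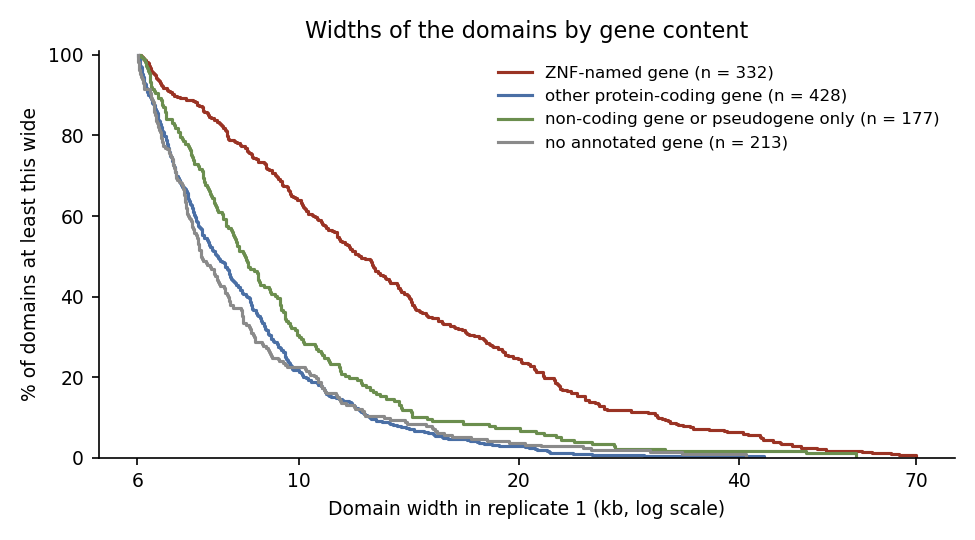
Share of domains at least as wide as the value on the x axis (kb, log scale), for the 4 classes of gene content. The curve of the 332 domains with a ZNF gene lies to the right of the others, with a median of 12.1 kb.

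Among the 10 widest domains, 8 overlapped a ZNF gene. The widest was 69.97 kb long (chr5:178926478-178996451) and covered ZFP2, ZNF454 and GRM6, a glutamate receptor of retinal bipolar cells. Next came a 66.3 kb domain at ZNF268 (chr12:133182852-133249141), a 64.6 kb domain in ZNF678 (chr1:227608731-227673367) and a 60.9 kb domain over ZNF544 (chr19:58216519-58277403). Both replicates saw these stretches as wide, since single replicate 2 rows of 75.9, 67.2, 67.7 and 50.2 kb met them. The others with ZNF genes lay at ZNF670 (59.0 kb), ZNF606 (52.7 kb), ZSCAN18 with ZNF329 (51.2 kb) and ZNF26 (48.8 kb).

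The 2 without a ZNF gene held non-coding genes only. A 58.0 kb domain on chrX:115888431-115946432 covered DANT1 and DANT2, lncRNA genes at the DXZ4 macrosatellite, and replicate 2 broke it into 6 rows of at most 11.8 kb. A 49.5 kb domain on chr15:25045927-25095389 lay in SNHG14, an imprinted transcript that hosts small nucleolar RNAs, and held 24 of the 30 SNORD116 genes. Other domains held 28 of the 48 SNORD115 genes of the same transcript. Among all snoRNA genes, 53 of 939 (5.64%) were in a domain, so these 2 arrays made up nearly all of them. The domains held 7 of 1877 miRNA genes (0.373%), among them MIR643 and MIR1303.

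Among the 20 protein-coding genes with the most bases in domains were ZNF678 (107 kb, 94.3% of the gene), ZNF717 (65.3 kb), ZNF585A (59.1 kb), ZNF850 (54.8 kb, 93.8%), ZNF718 (54.1 kb) and ZNF721 (54.0 kb). ZNF420, ZNF345, ZNF432 and ZNF544 had 52.5, 50.5, 49.1 and 48.8 kb, which was 99.8% of ZNF544. The readthrough gene ZNF670-ZNF695 stood first with 110 kb, and 6 gene models without a symbol were also among the 20. CHFR, a ubiquitin ligase of a mitotic checkpoint, had 65.6 kb in 2 domains (48.9% of the gene) beside a ZNF cluster. STK3, a Hippo pathway kinase, and FAF1, a Fas-associated factor, had 57.6 and 53.5 kb, but these were 10.1% and 10.2% of their long bodies, in 7 and 5 separate domains. MAPK9, which codes for the kinase JNK2, lay outside those 20: 1 domain of 43.4 kb took up 73.6% of it, and it was picked after its values were seen.

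Other gene families were counted against the 3.55% of all protein-coding genes. Clustered protocadherins, cell-surface proteins of neurons, had 21 of 53 genes overlapped (39.6%). These 21 are the gamma genes PCDHGA1 to PCDHGC4, which share their last exons, and the domain with the most of them was 10.8 kb (chr5:141477347-141488142), so they are not 21 separate cases. The 8 UDP-glucuronosyltransferases of 21 (38.1%) were likewise UGT1A genes with a shared body, crossed by 1 domain of 9.7 kb on chromosome 2. Narrower rows overlapped 42 of the 53 clustered protocadherins and 9 of the 21 UDP-glucuronosyltransferases, so overlap with these families was not particular to the domains. Without the share of all protein-coding genes that narrower rows overlapped, these 2 counts set neither family apart. Imprinted genes had 4 of 44 members overlapped (9.09%): KCNQ1, UBE3A, ZFAT and ZNF331, of which 2 are zinc-finger genes. The domain in KCNQ1 was 13.0 kb wide and overlapped its antisense transcript KCNQ1OT1. Potassium channels had 3 of 96 (3.12%) and TRIM genes 3 of 77 (3.9%), near the share of all genes.

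Most other families counted had 1 member or none overlapped. Beside the 3.55% of all protein-coding genes, most of these lists are too short for such a count to set a family apart. A single olfactory receptor of 416 was overlapped, OR1F1, as were 1 of 94 keratin-associated protein genes, 1 of 24 bitter taste receptors (TAS2R14) and 1 of 17 mucins (MUC5B). For the taste receptors (4.17%) and mucins (5.88%) this was above the share of all genes. No member was overlapped among 113 cancer-testis antigens, 57 cytochromes P450, 55 keratins, 46 defensins, 39 HOX genes, 23 PRAME genes, 112 genes of segmental duplications or 74 replication-dependent histones. Narrower rows overlapped 11 of the 57 cytochromes P450 and 8 of the 74 histones. The 3.55% is for domains, and the like share for narrower rows is not given here, so these counts set neither family apart. Broad H3K27me3 regions overlapped 8 of the 39 HOX genes (20.5%) and 18 of the 96 potassium channels (18.8%). Over the lists counted, ZNF genes, clustered protocadherins and UDP-glucuronosyltransferases were the 3 with more than 10% of members overlapped.

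Of 24 genes for writers, readers, cofactors and erasers of H3K9me3, 1 lay in a domain. It was ZNF274, itself a zinc-finger protein that brings SETDB1 to zinc-finger genes, with 29.6 kb inside. The genes for SETDB1, TRIM28, SUV39H1, SUV39H2, ATRX, DAXX and the HP1 proteins CBX1, CBX3 and CBX5 were outside. FLI1 lay within 1 kb of the start in all 4 libraries at 15 of the 24 genes, ZNF274 and SETDB1 among them, and at 33.8% of all protein-coding starts.

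Within ZNF genes the domains lay over the body and the 3′ end and left most starts outside. Of the 270 overlapped genes, 232 (85.9%) had their last exon overlapped and 175 (64.8%) had it wholly inside, whereas 19 (7.04%) had their first exon overlapped. The last exon but not the first was overlapped in 217 genes, and the reverse held in 4. In C2H2 genes the last exon usually codes for the whole row of fingers. Mean coverage over 10 equal bins of the gene rose from 19.4% in the first to 71.5% in the ninth, and was 17.9% just upstream and 53.0% just downstream. Of the other 434 overlapped genes with more than 1 exon, 44 (10.1%) had the last exon and 20 (4.61%) the first exon overlapped. In 38 it was the last but not the first and in 14 the reverse, and coverage ran from 10.0% to 18.9% along the body. Their bodies were longer, with a median of 129 kb against 28.9 kb. A gene had to be touched by a domain to be counted here, so the level of these profiles is fixed in part by that choice.

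**Figure D2:**
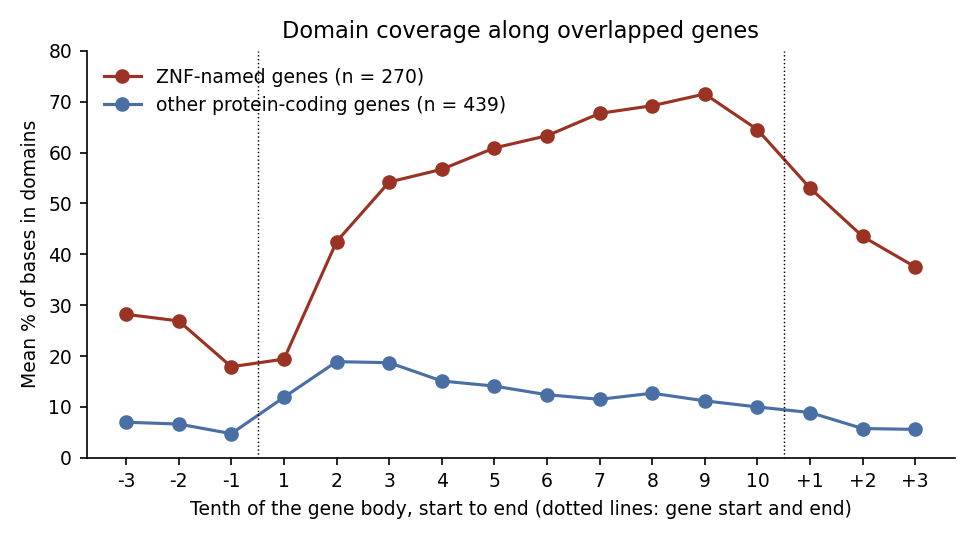
Mean percent of bases in domains along the genes that a domain overlaps (y axis), over 10 equal bins of the gene body from start to end and in 3 flanking bins of the same length on each side. The 270 ZNF genes rise from 19.4% to 71.5%, while the 439 other genes stay below 20%.

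The sequence of the domains carried the same fingers. The linker letters occurred 1149 times in domains, 89.6 per Mb, against 13.1 per Mb in narrower rows, 0.799 per Mb in the genome and 0.42 per Mb in broad H3K27me3 regions. Domains thus held 49.4% of all matches in the genome, and 938 of the 1492 matches in ZNF coding exons (62.9%). Tiles of 300 bases with a match made up 1.76% of those in domains and 0.0169% of those in the genome. At least 1 match stood in 217 domains, and 20 of these overlapped no ZNF gene. A search for the spacing at which each domain best matches itself gave a multiple of 84 bases, the finger unit, in 213 of 332 domains with a ZNF gene (64.2%) and in 52 of the 818 others (6.36%). The domains had 42.6% G and C, between the 40.9% of the genome and the 45.0% of narrower rows, and far below the 54.9% of broad H3K27me3 regions.

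A smaller class of domains repeated themselves in tandem. In 32 domains, 471 kb in all and none with a ZNF gene, at least 50% of bases matched the base at a fixed distance of 50 or more bases. The distance was a multiple of 5 bases in 13 of them and lay at the unit of alpha satellite, its double or within 1 base of the unit in 12. The remaining 7 had other distances, and 3 of them lay in protein-coding genes, among them MUC5B and NSUN6. GGAAT or its reverse complement occurred 75.7 times per kb in the 13 domains with a multiple of 5, 2.75 in the 12 at the alpha satellite unit and 15.8 in the 7 others. Domains without such a match had 2.16 per kb and the genome 2.25. The widest of the 32 lay on chr21:7928413-7969341 (40.9 kb), chr17:26842254-26875665 (33.4 kb) and chr4:49091292-49121499 (30.2 kb). Of the 32, 24 lay within 5 Mb of a centromere. The DANT and SNORD116 domains had best matches of 27.4% and 27% and are not among them. Of 31-base stretches sampled in all domains, 70.7% occurred once in the genome, and in the 32 self-repeating domains 49.8% did. In narrower rows it was 67.5% and in broad H3K27me3 regions 93.4%. How reads with several equal matches were treated is not given in the sources used here.

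Chromosome 19 held 239 of the 1150 domains (20.8%) and 25.8% of their bases, with 2.01% of the genome's sequence. Domains covered 5.66% of it, against 0.584% of chromosome 1 and 0.537% of chromosome 7, the next highest, and 0.0599% of chromosome 13, the lowest. Chromosomes 13 and 21, which have no ZNF gene in the annotation, had 7 and 15 domains. Chromosome 19 was also highest for narrower rows, at 2.68%, but there the range of the others was 0.648% to 1.59%. It was the single chromosome on which domains covered more sequence than the narrower rows did.

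**Figure D3:**
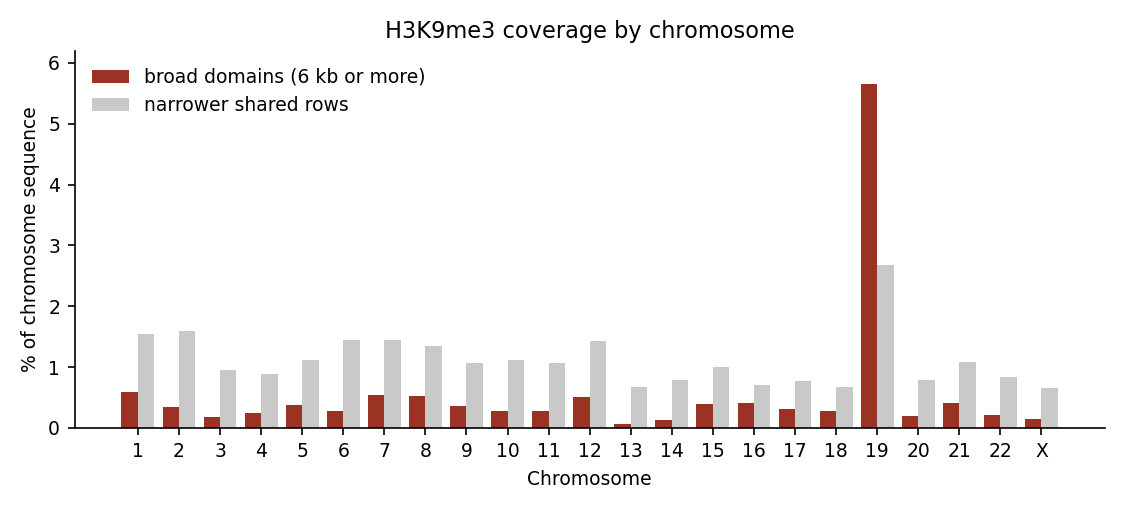
Percent of each chromosome's sequence (y axis, unknown bases left out) in broad domains and in narrower H3K9me3 rows shared by both replicates. Chromosome 19 stands at 5.66% for domains, and the other chromosomes lie between 0.0599% and 0.584%.

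Domains came in clusters. Joined over gaps of up to 100 kb, they formed 701 groups, of which 546 were single domains and 25 had 5 or more. Those 25 held 302 domains and 35.93% of the domain bases. The cluster with the most bases, chr19:52271669-53658195, had 40 domains and 27 of its 29 ZNF genes overlapped. In chr19:36366342-37247682 all 19 protein-coding genes were overlapped, 17 of them ZNF genes. Near the end of chromosome 12, 9 domains filled 94.5% of a stretch of 0.369 Mb (chr12:132887871-133257336), with 7 of 7 ZNF genes, CHFR and ANHX inside. The cluster at chr4:67880-492135 had 23 domains over 5 of 5 ZNF genes. ZNF genes that no domain overlapped also existed within clusters, such as ZNF419, ZNF211 and ZNF587 among the 8 of 31 in chr19:57465963-58300037. Whether narrower rows lay over these genes is not given here.

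Domains lay close to chromosome ends more often than narrower rows did. Within 5 Mb of an end were 191 domains (16.6%, 95% Wilson interval 14.6% to 18.9%), against 8.48% of narrower rows and 6.96% of genome sequence. For domains with a ZNF gene it was 26.5% (22% to 31.5%), and for those without it was 12.6% (10.5% to 15%), while ZNF genes as such were at 24.8%. Broad H3K27me3 regions were nearer to ends still, with 39.1%. Off chromosome 19 the share of domains was 15.7%. The domain nearest to an end was 7.33 kb wide and lay 18.0 kb from the end of chromosome 12. Intervals cover counting error only and treat neighbouring domains as separate.

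Centromeres were located by the repeat length of alpha satellite in hg38. Within 5 Mb of one lay 142 domains (12.3%, interval 10.6% to 14.4%), against 8.81% of narrower rows, 9.27% of genome sequence and 2.98% of broad H3K27me3 regions. With a ZNF gene the share was 14.8%, and ZNF genes as such had 14.5%. The stretches located as centromeres were touched by 30 domains, and none of these overlapped a ZNF gene. Such stretches are not alpha satellite throughout, since the chromosome 17 GGAAT sequence shown above lies inside one. The shares of domains within 5 Mb of ends and of centromeres were thus both larger than those of the narrower rows. The intervals treat neighbouring domains as separate, yet 302 domains lay in 25 clusters of 5 or more. Whether the intervals overlap therefore does not test these differences.

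The other histone marks were nearly absent from the domains. H3K27me3 rows covered 0.0683% of domain bases in replicate 1 and 0.0388% in replicate 2, against 1.68% and 1.08% of the genome, and 1 domain met a row. H3K27ac, a mark of active promoters and enhancers, had 1 region centre in domains in each replicate, or 0.0779 per Mb, against 3.51 and 5.97 per Mb in the genome. The region of replicate 1 lay at AADACL4 (fold 4.15) and that of replicate 2 on chr1:177727582-177728271 (fold 3.59). H3K27ac was mapped in set A and H3K9me3 in set B, so set and mark cannot be told apart here.

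FLI1 regions were placed by their centres. The 2 set A lists gave 35210 and 40590 regions, and those of set B gave 38221 and 29339. Of these, 77 and 111 (set A) and 34 and 18 (set B) lay in domains, which is 6.0, 8.65, 2.65 and 1.4 per Mb. Outside all H3K9me3 rows of replicate 1 there were 12.2, 14.0, 13.3 and 10.2 per Mb. All 4 libraries had fewer FLI1 regions per Mb in domains. The log2 ratio was -1.02, -0.70, -2.33 and -2.87, with a mean of -1.73 ± 1.04 (SD, n = 4). The exact two-sided sign-flip test over the libraries gave p = 0.125, which is the lowest value open to 4 libraries. Adjusted by Benjamini-Hochberg over 6 tests, p was 0.188.

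Against narrower rows, with 7.18, 10.1, 4.11 and 2.41 regions per Mb, the difference was small. The log2 ratio was -0.26, -0.22, -0.63 and -0.78 (mean -0.47 ± 0.28, SD, n = 4, exact sign-flip p = 0.125, adjusted p = 0.188). It was below 0 in 4 of 4 libraries, but it rested on the width limit: with a minimum of 4 kb the mean was -0.01, and with 10 kb it was -1.13. Set A exceeded set B by 0.47 in this ratio (exact permutation p = 0.333, the smallest that 2 against 2 allows), and that sign turned under 3 other settings.

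FLI1 density was also taken apart by ZNF content. In domains with a ZNF gene, set A libraries had 1.32 and 1.7 FLI1 regions per Mb and set B libraries 1.88 and 1.51, a narrow range over all 4. The other domains had 9.31 and 13.6 per Mb for set A, near the level outside H3K9me3, but 3.19 and 1.33 for set B. This difference between the sets was not tested. The counts behind the ZNF domains are 7, 9, 10 and 8 regions. Set A regions in domains of either kind lay in 43 and 58 of the 1150 domains, so most domains held none. Their median folds were 5.09 and 5.1, against 6.88 and 6.47 for set A regions in no domain. Of the FLI1 summits in domains, 76.6% and 75.7% (set A) and 88.2% and 94.4% (set B) lay on a 31-base stretch found once in the genome. In domains without a ZNF gene and with at least 50% of sampled stretches found once, densities were 9.91, 14.5, 3.68 and 1.6 per Mb. Whether repeated sequence bears on the gap between sets was not tested. By the labels, each set has its own IgG libraries, and set B holds both FLI1 and H3K9me3. The labels do not say which control each list was called against. If it was the IgG of the same set, control and set cannot be told apart.

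**Figure D4:**
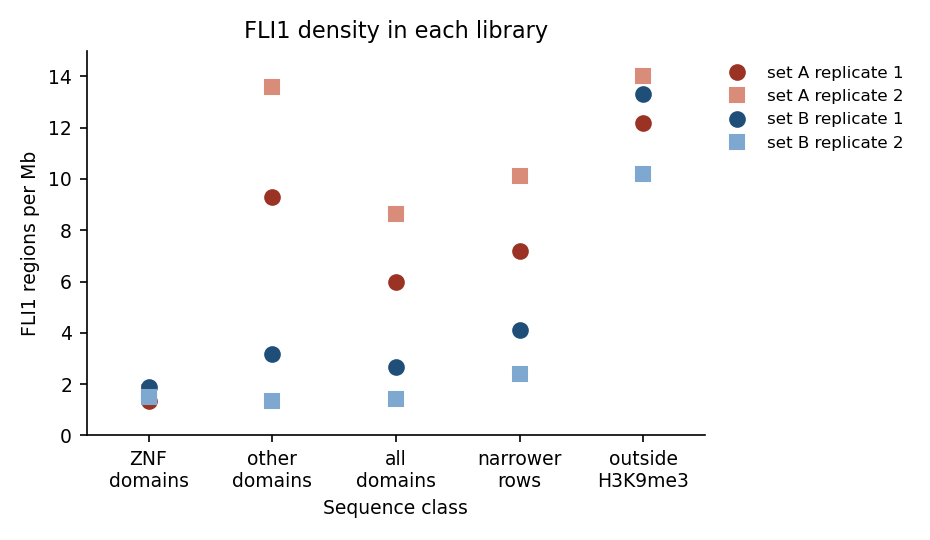
FLI1 regions per Mb (y axis) in domains with a ZNF gene, other domains, all domains, narrower H3K9me3 rows and sequence outside H3K9me3 rows, with 1 point per library. All 4 libraries lie between 1.32 and 1.88 in ZNF domains and between 10.2 and 14.0 outside H3K9me3.

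The share of domains with at least 1 FLI1 region was 3.74% and 5.04% by the set A lists, and 2.7% and 1.39% by those of set B. Over all H3K9me3 rows shared by both replicates, most of them shorter, it was 1.25%, 1.58%, 0.813% and 0.48%. FLI1 regions in domains were compared with other FLI1 regions by their percentile of fold within the library. The differences were -19.7 and -19 points for set A, and -3.57 and 1.17 points for set B (mean of all 4 -10.3 ± 10.7, exact sign-flip p = 0.25, adjusted p = 0.3). In any library 71 domains had a region, and in all 4 libraries 12 did. Joined across libraries, the regions in domains made 150 stretches, of which 97 were in 1 library and 9 in all 4.

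Those 9 can be named. The strongest, joined across libraries, ran over chr6:168166331-168174568, past the end of its domain at 168172424. The 4 library regions that gave its values ended between 168169499 and 168170693. It was intergenic and 67659 bp from the nearest protein-coding start, that of FRMD1, with folds of 56.1, 111, 41.4 and 28.2. Its percentile of fold was 98.5, 99.6, 98.6 and 97.1. Its domain was 7.72 kb wide with H3K9me3 folds of 7.76 and 6.67. The next 5 lay in ZNF domains: 124 bp from the start of ZNF528 (folds 20.1, 16.4, 11.9 and 10.5), 161 bp from ZNF300, 28369 bp from ZNF266, 308 bp from ZNF470 and 71 bp from ZNF134. The last 3 by mean percentile of fold lay in a ZNF790 intron, at the start of AADACL4 and in a ROCK2 intron. H3K27ac met 1 of the 9 regions, AADACL4, in replicate 1. Of the 9, 5 were within 1 kb of a protein-coding start, 4 of them ZNF starts. The share of all FLI1 regions that lie this near a start is not given here, so this count does not set the 9 apart.

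At the starts of ZNF genes, FLI1 was not lower in genes overlapped by a domain than in the others. Of the 270 overlapped genes, 58.9%, 57.4%, 69.6% and 64.1% had FLI1 within 1 kb of the start (set A replicates 1 and 2, then set B), against 57.3%, 53.6%, 66.2% and 63.2% of the 302 not overlapped. Over all protein-coding starts it was 40.7%, 40.4%, 49.7% and 46.3%. The difference between the ZNF classes was 2.42 points ± 1.4 (SD, n = 4, above 0 in 4 of 4 libraries, exact sign-flip p = 0.125, adjusted p = 0.188). The 25 ZNF genes whose start was itself in a domain had FLI1 there in 20%, 20%, 28% and 20%. Their difference from the ZNF genes not overlapped was -38.1 points ± 3.95 (SD, n = 4, below 0 in 4 of 4 libraries, exact sign-flip p = 0.125, adjusted p = 0.188). A lower FLI1 share was thus seen at starts inside domains and not over all overlapped genes. H3K27ac was within 1 kb of the start in 8.15% and 11.9% of overlapped ZNF genes, in 22.5% and 29.8% of those not overlapped, and in 0 of the 25.

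**Figure D5:**
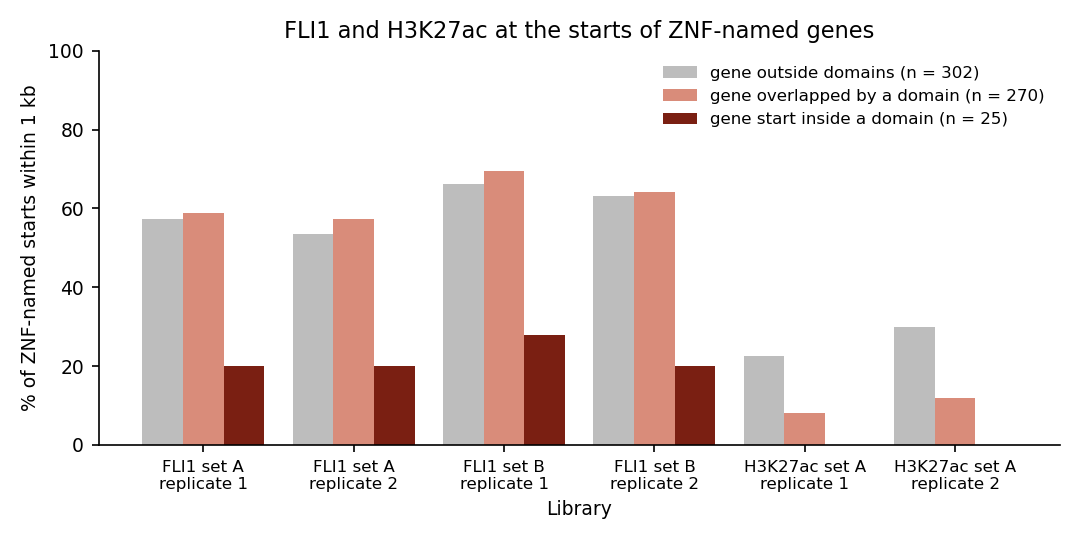
Percent of ZNF gene starts with a FLI1 or H3K27ac region within 1 kb (y axis), by library and by the gene's relation to domains. FLI1 bars for overlapped and other genes lie between 53.6% and 69.6%, and bars for starts inside domains at 20% to 28%.

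GGAA repeats, here stretches of GGAA (or TTCC) repeated 4 times or more, were found with FLI1 outside the domains but not within. Domains held 48 repeats (3.741 per Mb, against 5.632 outside H3K9me3 rows), 9 of them with 8 or more units and the longest with 18. A FLI1 summit lay within 250 bp of 0 of 48 in each of the 4 libraries, and a count of 0 allows a share of up to 6.25%. Outside H3K9me3 rows it was 11.1%, 12.4%, 12% and 9.95% of 16060 repeats, and in narrower rows 8.77%, 10.5%, 9.94% and 9.36% of the repeats there. A count of 0 fixes the sign of this difference in each library, so no test is given. The 32 self-repeating domains held 0 FLI1 regions in each library, and in 0.471 Mb that allows up to 6.37 per Mb. The other 1118 domains had 6.23, 8.98, 2.75 and 1.46 per Mb, so the limit lies below the density of set A replicate 2 and above those of the other libraries.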

How the data were processed

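CUT&RUN peak lists of 10 libraries were analysed, each called per library. Per the submitters' processing notes, cutadapt 4.4, Bowtie2, Picard 2.17.11 and MACS2 2.1.1 were used on GRCh38 (hg38); the notes give no role or order. The deposited fold is the authors' ratio of peak signal to IgG control. The deposited significance is the authors' −log10 p-value and −log10 q-value, and the deposited score was not used. The lists hold no read totals, so depth is unknown and a region absent from a list was not detected, which does not show it to be unbound. Domains are single rows as deposited, and FLI1 and H3K27ac rows that overlap within a list were merged. Genes come from GENCODE release 44.

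The members and gene lists were chosen with earlier results of these data known. Genes and regions were named by rule: the 10 widest domains, the domain with the most genes in each of 5 families, the 20 genes with the most bases inside, FLI1 regions in domains in all 4 libraries, rows beside the 6 kb limit, and H3K9me3 regulators inside a domain. Tests were exact sign-flip or permutation tests over libraries. The interval code was tested on simulated data and gave 80 of 80 right answers. Alternatives covered domain width, replicate roles, row joining, significance, FLI1 placement and each FLI1 library. Reads and IgG libraries were not analysed here. Python 3.11.15 with numpy 2.4.6, pandas 2.3.3, scipy 1.17.1, numba 0.67.0 and matplotlib 3.10.9 was used.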

Additional observations from a re-analysis of the deposited data

How the results depend on the processing

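Of 114 recomputed values, 21 moved and 3 turned sign. Among the other 90, FLI1 ratios and differences were judged by sign alone, and shares and counts by their spread, interval or size. The ratio of FLI1 density in domains over sequence outside H3K9me3 was negative in all 15 alternatives (-2.5 to -1.07), as was that over narrower rows (-1.13 to -0.00936). Leaving out 1 FLI1 library gave -2.07 to -1.35 and -0.558 to -0.371. It gave -14.1 to -7.13 points for the fold percentile and 2.61% to 3.83% for domains with FLI1.

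The difference of set A minus set B turned to -0.611 with a minimum width of 10 kb, to -0.0109 with 1 shared base, and to -0.695 with the more significant 50% of FLI1 regions, which also lowered the mean share of domains with FLI1 from 3.22% to 1.17%. The cause was not tested. With the replicate number as a block, the difference was 0.467 (exact sign-flip p = 0.5 over 2 pairs), with 0.375 and 0.559 in the 2 pairs. These pairs cannot show whether the numbers pair the libraries.

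The number of domains was 2561 at 4 kb and 401 at 10 kb. At 4 kb, 54.2% of ZNF genes, 5.61% of all genes, and 13.4% of domains near ends were counted. At 10 kb these were 35.1%, 1.7% and 25.4%, with 15.2% near centromeres and 0.0667% of bases in H3K27me3. With the replicates' roles swapped, 40.9% of ZNF genes, 2.73% of all genes and 94.2% of domain bases in the other replicate resulted. Joining rows within 1 kb gave 4.02% of all genes. Counting genes by their start gave 4.37% of ZNF and 0.23% of all genes, and by at least 50% of the body 27.3% and 0.891%. Without chromosome 19, chosen after seeing the data, the shares were 33.4% and 2.83%.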

Other observations

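The domains that overlap no ZNF gene and yet carry the linker letters number 20, against 197 of the 332 domains with a ZNF gene. Of the 20, 18 held non-coding genes or pseudogenes alone, such as ZNF252P, a zinc-finger pseudogene in a 31.7 kb domain on chromosome 8 with 7 matches. The other 2 held a protein-coding gene: the MAPK9 domain had 9 matches, and a 25.2 kb domain with 5 lay in KRBOX5, which is a KRAB-box gene with no ZNF name and had 33.8 kb (41.4%) of its body in domains. Outside such genes, CCDC171 held a 29.7 kb domain and GPR39, a G protein-coupled receptor gene, 35.9 kb in 3 domains. These were picked after their values were seen.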
